A study of Rattus norvegicus with 10 samples.

Results

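The type I interferon response was followed through 37 genes that encode an interferon receptor chain, the kinases and transcription factors downstream of it, and products induced by it. Members were rows of the deposited gene count table whose symbol equalled a name on the list. The table held 36 of the 37 among its 17168 rows, and Ifnar2, which had no row, was not analysed here. RNA came from left hippocampi of 10 female TgF-344AD rats, which carry mutant human amyloid precursor protein and presenilin transgenes under the mouse prion promoter and serve to model Alzheimer disease. The untreated group (n = 5) received rodent chow, and the ibudilast group (n = 5) received chow with ibudilast, an inhibitor of several cyclic nucleotide phosphodiesterases, from 5 months of age for 6 months. All rats were transgenic, were anaesthetised with ketamine and xylazine, and were perfused with cold buffered saline at 11 months of age, so no comparison with rats that lack the transgenes can be made from these libraries. Each title carries its own animal tag, and libraries are named here by group and replicate number.

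Type I interferons are secreted cytokines, made mainly after cells sense foreign or misplaced nucleic acid. They bind a receptor of 2 chains, IFNAR1 and IFNAR2, whose bound kinases TYK2 and JAK1 phosphorylate STAT proteins, and STAT2 then joins IRF9 in a factor that switches on a large set of interferon-stimulated genes. In the ageing brain and in models of amyloid deposition, microglia, the resident macrophages of the brain, and vascular cells are known sources of such transcripts.

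Total estimated counts ran from 6960066 to 10121571 per library, and levels are given as CPM, that is, counts scaled to a common library size with TMM factors. Some libraries stood apart. Meningeal fibroblast markers, summed, came to 156 to 288 CPM in 8 libraries but to 1229 CPM in ibudilast 3 and 1506 CPM in ibudilast 5. Ibudilast 3 also stood out by summed cerebellar markers (3678 CPM, elsewhere at most 77.0 CPM), and untreated 1 by choroid plexus markers (2613 CPM, elsewhere at most 138 CPM). Hippocampal neuron markers were present in every library. They summed to 1052 to 2031 CPM without ibudilast and 862 to 1414 CPM with it, and 7 of 12 tested markers were lower (median log2 fold change -0.93 over the 12). In ibudilast 3 the sum was 1023 CPM, of which Calb1 alone held 471 CPM, and Calb1 was at 59.2 to 178 CPM elsewhere. Summed neocortical neuron markers were higher with ibudilast (355 to 907 CPM) than without (220 to 297 CPM). Of 12 tested neocortical markers 9 were higher (median log2 fold change 1.32 over the 12). The microglia sum was 1032 to 1756 CPM without ibudilast but 463 to 897 CPM with it, and 18 of 19 tested markers were lower. Astrocyte markers summed to 6283 to 9624 and 4241 to 5916 CPM, with 6 of 11 lower. Endothelial and mural cell markers summed to 613 to 867 and 428 to 770 CPM, with 8 of 18 lower. Summed blood leukocyte markers were at 9.53 to 27.4 CPM and 9.51 to 41.8 CPM. On that list the B cell gene Ms4a1 was at 0 in 9 of the 10 libraries, but Cd4 was at 6.80 to 12.6 CPM. The T cell gene Cd3e was at 14.4 CPM in untreated 4 and at most 1.76 CPM elsewhere. Ly6g6e held 31.9 of the 41.8 CPM in ibudilast 3 and was at most 2.08 CPM elsewhere. S100a8 and S100a9 were at most 0.55 CPM in every library, so these sums rest on few of the listed genes and are a poor measure of leukocytes.

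A group of 11 interferon members fell in the ibudilast libraries, and 2, Adar and Stat2, rose. Of the 36 members 33 passed the filter on low counts. Among these 33, 11 fell (Mx1, Bst2, Irf7, Ifi27, Ifi35, Ddx58, Ifi44, Mx2, Parp9, Irf9 and Eif2ak2), 2 rose, and 20 did not pass at an edgeR adjusted p under 0.05, with the adjustment made over 11682 genes. Over all tested genes 18.5% were called lower and 20.0% higher, against 33.3% and 6.06% of the tested members. Members were chosen with earlier results of these data known, so these shares are a description and not a test. The median log2 fold change was -0.52 over the tested members and 0.01 over all tested genes, and 26 of the 33 members were below 0, as were 49.5% of all tested genes. All 5 ibudilast libraries lay below all 5 untreated libraries at 3 of the 33 members, Ifi27, Mx2 and Eif2ak2, or 9.09%, and 11.8% of all tested genes did so. They lay above at 2 members, Stat2 and Adar, where 12.3% of all tested genes did so. These libraries are of whole tissue, so fewer cells of a type and less RNA per cell cannot be told apart. The microglia, astrocyte, endothelial and hippocampal neuron markers that passed moved in the same direction as the 11 lower members. Their part in these falls was not tested. Fits with marker scores as covariates are given at the end, and these scores differ between the groups.

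**Figure D1:**
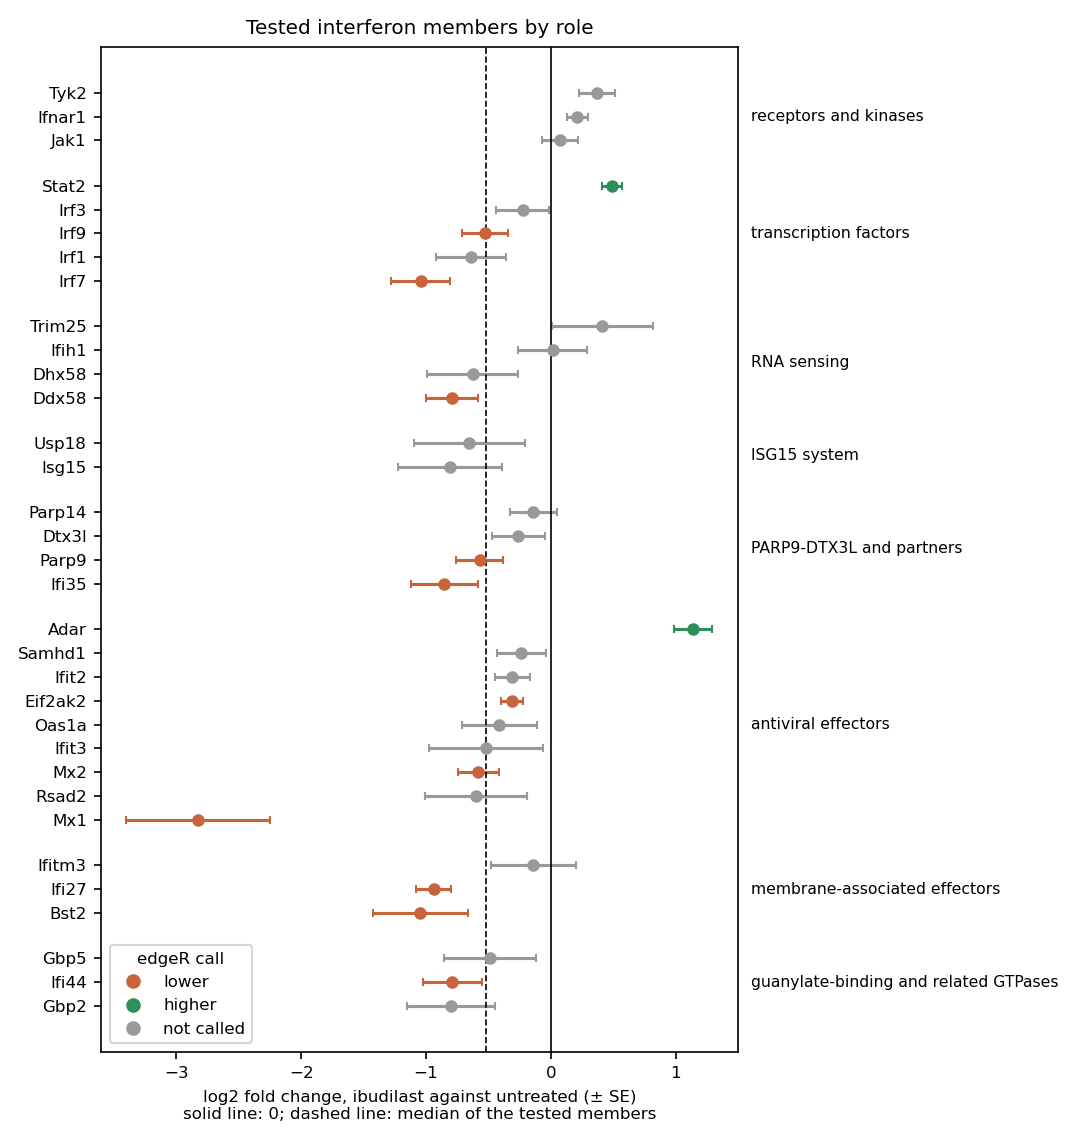
Log2 fold change of each of the 33 tested members, ibudilast against untreated, with its standard error, grouped by role. The 11 members called lower and the 2 called higher are coloured, the others are grey, and the dashed line marks the members' median of -0.52.

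The number of falling members depended on single libraries, on the scaling and on added blocks or covariates. The count was 7 without untreated 1 (all genes 13.7% lower and 15.7% higher), 6 without untreated 2 (15.3% and 16.7%), 6 without ibudilast 2 (14.1% and 16.3%), 7 without ibudilast 4 (14.7% and 16.8%) and 13 without ibudilast 3 (18.6% and 22.0%). Leaving out untreated 3 gave 10 (14.1% and 16.1%), untreated 4 gave 8 (16.4% and 17.9%), untreated 5 gave 9 (16.4% and 21.4%), ibudilast 1 gave 8 (19.4% and 20.8%) and ibudilast 5 gave 8 (14.4% and 17.0%). Adar and Stat2 were called higher in all of these fits. With library totals in place of TMM factors 7 members fell and 3, Adar, Stat2 and Ifnar1, rose (14.7% and 22.1% of all genes). Without untreated 1, ibudilast 3 and ibudilast 5 together, 9 fell and 2 rose (11.6% and 15.0% of all genes), with a median of -0.69. In that fit Ifitm3 passed, and Mx2 (edgeR adjusted p = 0.0879), Ifi35 (0.107) and Irf9 (0.0538) did not. With the replicate number as a block 5 members fell (14.2% of all genes lower and 16.0% higher). With the trend on gene span removed 8 fell (15.5% and 18.5%). With a marker score as a covariate 2 fell for neocortical neurons (7.21% and 11.2%), 0 for hippocampal neurons (0.146% and 0.659%) and 0 for microglia (0% and 0%). In 10 further settings, 10 or 11 members fell and 2 rose. There the shares of all genes were 18.5% and 20.0% with relative log expression factors and with unrounded counts, 21.6% and 17.8% with upper quartile factors, 13.9% and 15.4% with no filter, and 18.3% and 19.8% with a minimum of 1 CPM in 5 libraries. By test they were 20.6% and 22.2% with DESeq2, 18.5% and 19.1% with limma-voom, 18.4% and 19.9% with robust edgeR, 18.7% and 19.4% with limma-trend on the deposited CPM, and 18.1% and 20.1% with the range of the animal tag as a block.

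Promoter windows of the members were searched for the cores of elements that bind interferon-activated factors. The interferon-stimulated response element (ISRE) binds the factor made of STAT proteins and IRF9, and the gamma-activated site (GAS) binds STAT dimers. In 300-base windows of the RefSeq table (GRCr8), which run from 250 bases before to 50 after the transcript start, 26 of the 36 members had a window. The ISRE core, searched on both strands as GAAA, then any pair of bases (NN), then GAAA, was found in 15 of these 26 windows (57.7%), in 3.92% of all 33469 windows and in 2.82% of 9210 windows of tested genes matched by symbol. The GAS core, searched as TTCNNNGAA, which reads the same on both strands, was found in 7 of 26 (26.9%), in 8.87% of all windows and in 6.35% of those of tested genes. Of the 9 lower members with a window 5 held an ISRE core, and of the 14 uncalled members with a window 9 did, so holding the core did not separate the members that fell from those that did not pass. Mx1, Ifi35, Parp9 and Stat2 had no match to either core in their windows.

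Sequences of the 250 bases before the start are shown for the 5 lower members with an ISRE core and for Irf9, a lower member with a GAS core alone, because these carry the letters counted above. Each is written along the direction of its gene, with the matched ISRE core, or for Irf9 the GAS core, in capitals. The windows are Ifi27 (chr6:128355062-128355311, plus strand), Irf7 (chr1:205800024-205800273, minus strand), Bst2 (chr16:18254968-18255217, minus strand), Eif2ak2 (chr6:21940904-21941153, plus strand), Ifi44 (chr2:243303841-243304090, minus strand) and Irf9 (chr15:33065586-33065835, plus strand).
Ifi27: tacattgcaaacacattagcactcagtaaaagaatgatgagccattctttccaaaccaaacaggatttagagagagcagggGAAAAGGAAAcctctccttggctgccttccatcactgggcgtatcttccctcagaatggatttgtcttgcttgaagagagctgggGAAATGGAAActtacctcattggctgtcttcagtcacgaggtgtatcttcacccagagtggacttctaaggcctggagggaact
Irf7: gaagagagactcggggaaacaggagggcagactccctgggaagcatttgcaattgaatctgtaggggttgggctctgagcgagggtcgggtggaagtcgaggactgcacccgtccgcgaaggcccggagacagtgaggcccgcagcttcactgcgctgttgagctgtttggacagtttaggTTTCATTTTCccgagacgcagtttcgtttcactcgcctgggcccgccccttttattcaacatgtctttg
Bst2: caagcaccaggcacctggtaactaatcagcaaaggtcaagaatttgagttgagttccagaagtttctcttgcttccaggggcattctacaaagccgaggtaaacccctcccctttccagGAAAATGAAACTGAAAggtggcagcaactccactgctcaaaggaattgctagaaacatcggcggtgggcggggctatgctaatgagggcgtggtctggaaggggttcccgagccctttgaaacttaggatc
Eif2ak2: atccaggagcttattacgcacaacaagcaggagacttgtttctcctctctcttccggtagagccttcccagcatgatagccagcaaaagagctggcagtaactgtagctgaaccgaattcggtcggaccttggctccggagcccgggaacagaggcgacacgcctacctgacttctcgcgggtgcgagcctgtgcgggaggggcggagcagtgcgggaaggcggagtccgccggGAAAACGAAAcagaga
Ifi44: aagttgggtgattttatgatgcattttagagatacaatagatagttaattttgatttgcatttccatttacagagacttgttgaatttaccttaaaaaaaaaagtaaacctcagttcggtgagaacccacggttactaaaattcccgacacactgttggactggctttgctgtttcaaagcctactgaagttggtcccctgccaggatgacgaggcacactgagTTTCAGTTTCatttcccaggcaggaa
Irf9: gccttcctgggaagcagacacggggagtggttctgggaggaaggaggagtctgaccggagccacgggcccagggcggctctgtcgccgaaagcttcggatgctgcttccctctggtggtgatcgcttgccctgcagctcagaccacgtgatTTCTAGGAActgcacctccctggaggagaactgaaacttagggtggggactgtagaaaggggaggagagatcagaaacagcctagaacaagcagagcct
Ifi27 held 2 ISRE cores, whose first bases lay at -169 and -84 from the start. In Bst2 the 2 ISRE cores overlapped each other, at -131 and -125, and a GAS core at -137 overlapped the first of them. Irf7 had its core at -69 and Ifi44 at -26, both on the opposite strand, and a second core of Ifi44 lay after the start. Eif2ak2 had its core at -16, and the GAS core of Irf9 began at -99. A match is a description of letters and not evidence that a factor was bound in these animals.

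**Figure D2:**
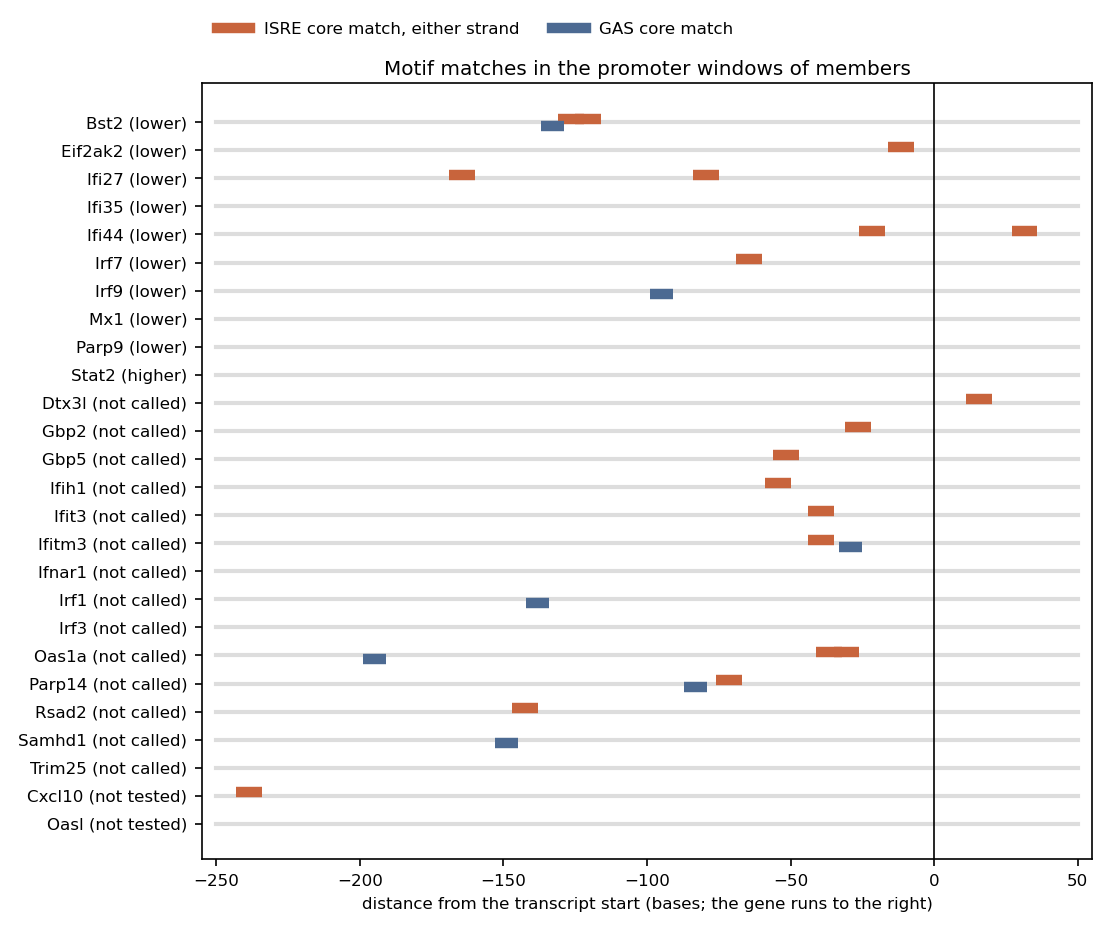
Positions of ISRE and GAS core matches in the 26 member windows, as distance in bases from the transcript start, with the edgeR call beside each symbol. ISRE cores appear in 15 windows, in called and uncalled members alike, and 9 of the 15 are windows of uncalled members.

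Receptor and kinase transcripts did not pass the test, and their estimates lay above 0. Ifnar1 encodes the low-affinity chain of the receptor. It stood at 77.0, 78.5, 84.9, 78.2 and 90.4 CPM in untreated 1 to 5 and at 87.9, 108, 85.4, 96.6 and 94.7 CPM in ibudilast 1 to 5, and the groups overlapped. The estimated change was 0.21 ± 0.09 on the log2 scale (SE; edgeR adjusted p = 0.0700). Tyk2, the kinase bound to that chain, had 22.6, 22.1, 20.1, 26.2 and 19.2 CPM in the untreated and 24.7, 28.4, 38.3, 24.8 and 25.9 CPM in the ibudilast libraries. Ibudilast 3 held the highest Tyk2 level, and the log2 fold change was 0.37 ± 0.15 (edgeR adjusted p = 0.0646). Jak1, the kinase bound to the other chain, had 204, 164, 222, 202 and 258 CPM against 208, 248, 163, 255 and 231 CPM, with the lowest values in untreated 2 and ibudilast 3 and a log2 fold change of 0.08 ± 0.14. At an unadjusted p under 0.05 Tyk2 and Ifnar1 passed, and DESeq2 and limma-voom called none of the 3. Ifnar1 passed without untreated 5 (0.28, adjusted p = 0.0319) or ibudilast 3 and with library totals in place of TMM factors, and Tyk2 passed without untreated 4 (0.44, adjusted p = 0.0471).

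Among the 5 transcription factors, Irf7 and Irf9 fell, Stat2 rose, and Irf1 and Irf3 did not pass. Irf7, the factor that amplifies interferon production and is itself induced by it, stood at 8.36, 10.4, 6.98, 7.66 and 3.87 CPM in untreated 1 to 5 and at 3.52, 3.52, 4.12, 3.29 and 3.60 CPM in ibudilast 1 to 5. Only untreated 5 lay within the range of the ibudilast libraries. Its log2 fold change was -1.04 ± 0.24 (SE; edgeR adjusted p = 0.00642). Irf9, the DNA-binding part of the STAT2 complex, was measured at 16.3, 21.6, 14.6, 25.8 and 16.9 CPM against 14.1, 13.2, 15.6, 9.51 and 13.5 CPM, highest in untreated 4 and lowest in ibudilast 4. The fall of Irf9 was -0.53 ± 0.18 on the log2 scale (edgeR adjusted p = 0.0405). In the fits with 1 library left out Irf9 passed 3 times, when untreated 1, untreated 3 or ibudilast 3 was the one removed (log2 fold change -0.61 to -0.40 over the 10 fits).

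Stat2, the partner of IRF9 in that complex, went the other way. It had 46.8, 47.0, 47.1, 45.4 and 52.5 CPM in untreated 1 to 5 and 64.4, 68.7, 73.9, 68.3 and 60.3 CPM in ibudilast 1 to 5, so the groups were apart. The log2 fold change was 0.49 ± 0.08 (SE; edgeR adjusted p = 0.00154), and it was called in all 10 fits with 1 library left out, between 0.46 and 0.56. Irf1, a factor induced chiefly by interferon gamma, stood at 14.1, 14.8, 11.6, 9.01 and 8.29 CPM against 8.88, 5.03, 12.1, 5.05 and 5.97 CPM, with ibudilast 3 inside the untreated range. Its log2 fold change of -0.64 ± 0.28 did not pass (edgeR adjusted p = 0.0898), and Irf1 passed without ibudilast 3 (-0.89) and with the range of the animal tag as a block (-0.64, edgeR adjusted p = 0.0404). Irf3, the factor activated directly by the sensing kinases, was at 39.9, 40.6, 35.9, 43.4 and 27.9 CPM against 27.2, 28.0, 52.1, 23.2 and 29.5 CPM. Ibudilast 3 had the highest Irf3 level of all 10 libraries and was the library with cerebellar and meningeal markers, whose part was not tested. With all libraries the log2 fold change of Irf3 was -0.23 ± 0.21 (edgeR adjusted p = 0.421), and without ibudilast 3 it was -0.47 and passed (adjusted p = 0.0200).

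**Figure D3:**
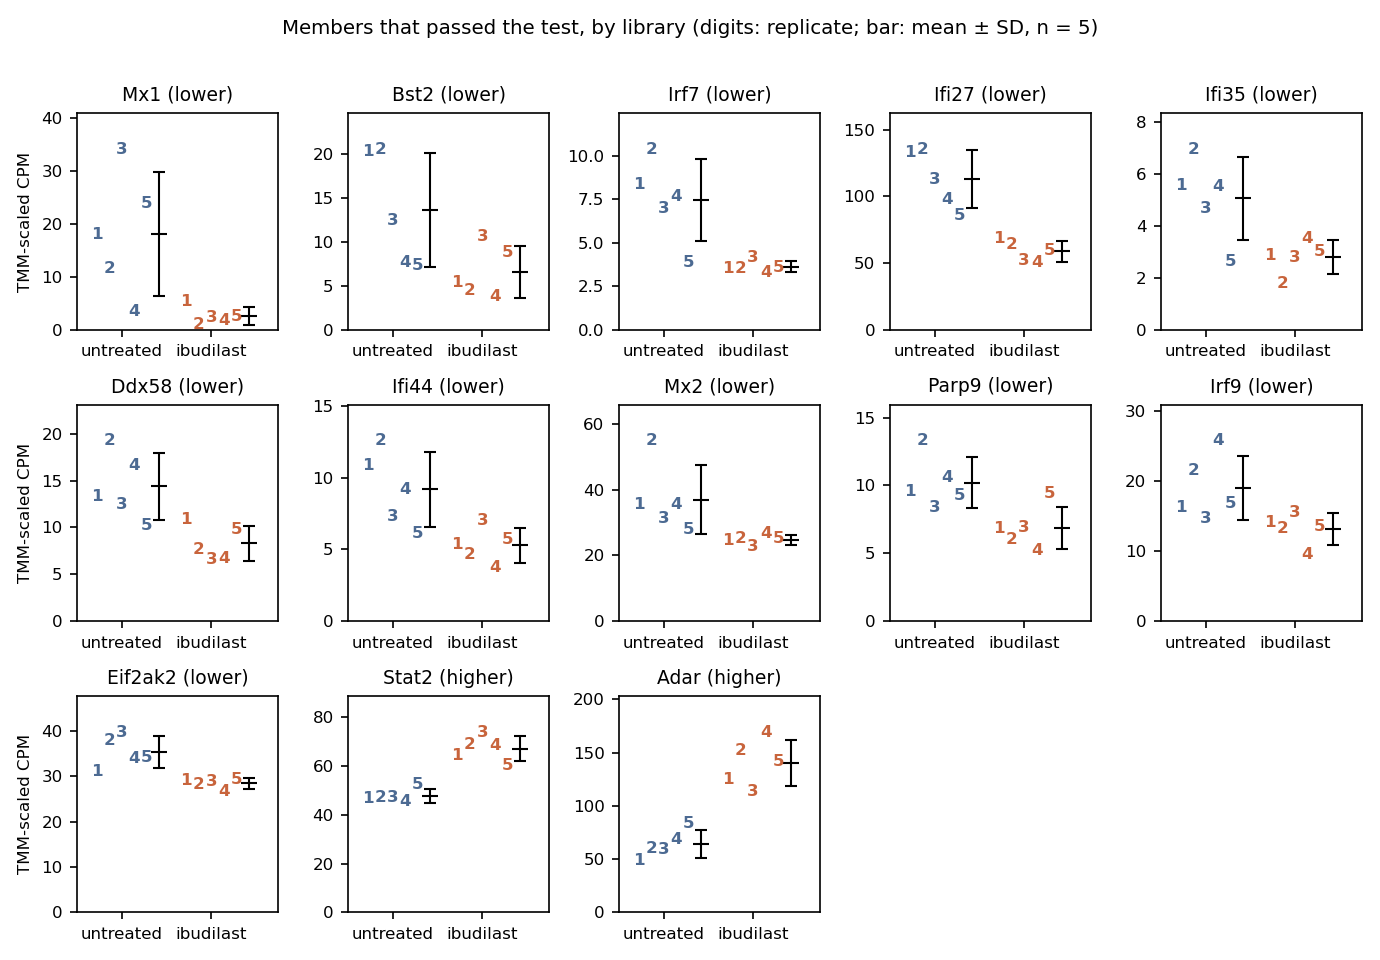
TMM-scaled CPM of the 13 called members in each library, with digits for the replicate number and a bar for the group mean and SD (n = 5). The groups are apart for Ifi27, Mx2, Eif2ak2, Stat2 and Adar and overlap for the other 8 members, and untreated 2 is the highest untreated library for 8 of the 11 lower members.

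Of the 4 members that sense viral RNA or serve that step, the receptor gene Ddx58 fell and 3 did not pass. Ddx58, which encodes RIG-I, had 13.3, 19.3, 12.5, 16.7 and 10.2 CPM in untreated 1 to 5 and 10.8, 7.67, 6.57, 6.69 and 9.75 CPM in ibudilast 1 to 5. Only untreated 5 and ibudilast 1 crossed between the groups. The log2 fold change was -0.79 ± 0.21 (SE; edgeR adjusted p = 0.0120), between -0.90 and -0.66 with 1 library left out, and called each time. Dhx58, which encodes the related helicase LGP2, ranged from 3.04 to 8.29 CPM without and 2.23 to 5.91 CPM with ibudilast (log2 fold change -0.63, edgeR adjusted p = 0.190), and it passed without ibudilast 3. Ifih1, which encodes the sensor MDA5, ranged from 1.64 to 5.78 and from 3.41 to 4.31 CPM (0.01, adjusted p = 0.974). Trim25, the ubiquitin ligase gene that acts on RIG-I, ranged from 0.976 to 2.33 and from 0.880 to 3.31 CPM (0.41, adjusted p = 0.441). Its highest values were in ibudilast 3 and ibudilast 5, the libraries with meningeal markers, and without these and untreated 1 its log2 fold change was -0.38 (adjusted p = 0.479).

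Isg15 and Usp18, a ubiquitin-like modifier and the protease that removes it and also dampens the receptor, did not pass. Isg15 stood at 3.08, 6.59, 1.92, 2.96 and 1.24 CPM in untreated 1 to 5 and at 1.83, 1.76, 2.67, 1.17 and 1.61 CPM in ibudilast 1 to 5. Untreated 2 stood far above the rest, untreated 1 and untreated 4 lay above every treated library, and untreated 3 and untreated 5 lay within the treated range. The log2 fold change of Isg15 was -0.81 ± 0.41 (SE; edgeR adjusted p = 0.142) and -0.34 without untreated 2. Usp18 ranged from 1.52 to 6.71 CPM without ibudilast and from 0.939 to 3.23 CPM with it, again with untreated 2 highest, and the log2 fold change was -0.65 ± 0.45 (edgeR adjusted p = 0.263). Neither gene passed at an unadjusted p under 0.05, and neither was called by DESeq2 or limma-voom.

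In the group of Parp9, Dtx3l, Parp14 and Ifi35, Parp9 and Ifi35 fell and the others did not pass. PARP9 and DTX3L form a complex that modifies proteins with ubiquitin and ADP-ribose, and in the GRCr8 annotation their genes overlap, so reads could be shared if the counting ignored strand. Parp9 had 9.53, 13.3, 8.35, 10.6 and 9.26 CPM in untreated 1 to 5 and 6.79, 6.03, 6.91, 5.16 and 9.38 CPM in ibudilast 1 to 5, with ibudilast 5 inside the untreated range. Its log2 fold change was -0.57 ± 0.19 (SE; edgeR adjusted p = 0.0350), and of the 10 fits with 1 library removed it passed in those lacking untreated 3 or ibudilast 5 (-0.71 to -0.46). Ifi35, which encodes a leucine zipper protein induced by interferon, was at 5.57, 6.95, 4.65, 5.51 and 2.63 CPM against 2.87, 1.76, 2.79, 3.52 and 3.03 CPM. Apart from untreated 5, every untreated library was above every ibudilast library. Ifi35 fell by 0.85 ± 0.27 on the log2 scale (edgeR adjusted p = 0.0294) and did not pass without untreated 1, untreated 2, untreated 4, ibudilast 2 or ibudilast 5 (-0.99 to -0.71). Dtx3l ranged from 6.02 to 8.29 and from 3.52 to 8.36 CPM, and Parp14, another ADP-ribosyltransferase gene, from 8.87 to 13.1 and from 7.28 to 14.0 CPM.

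The antiviral effectors held both the deepest fall and the largest rise of the members. Mx1 and Mx2 encode GTPases that block viral replication and are neighbours in the GRCr8 annotation, and the sources used here do not state how reads of the 2 paralogs were divided. Mx1 stood at 17.9, 11.5, 34.1, 3.36 and 23.9 CPM in untreated 1 to 5 and at 5.35, 1.01, 2.23, 1.64 and 2.56 CPM in ibudilast 1 to 5. The untreated libraries spanned 10.1-fold, untreated 4 lay within the ibudilast range, and the highest library was untreated 3 and not untreated 2. The log2 fold change of Mx1 was -2.82 ± 0.58 (SE; edgeR adjusted p = 0.00395), and it was called in all 10 fits with 1 library left out (-3.25 to -2.47). Mx2 had 35.5, 54.9, 31.1, 35.5 and 27.9 CPM against 24.4, 25.0, 22.6, 26.6 and 25.0 CPM. The treated libraries were close together and all below the untreated ones. Mx2 fell by 0.58 ± 0.17 on the log2 scale (edgeR adjusted p = 0.0182), and the estimate was -0.39 without untreated 2.

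Eif2ak2 encodes PKR, a kinase that halts translation when it binds double-stranded RNA. It had 30.9, 37.8, 39.7, 33.9 and 34.1 CPM in untreated 1 to 5 and 29.1, 28.3, 28.7, 26.5 and 29.4 CPM in ibudilast 1 to 5. The groups were apart by a narrow margin and the change was small, -0.31 ± 0.09 on the log2 scale (SE; edgeR adjusted p = 0.0184). Adar encodes the enzyme that edits adenosine to inosine in double-stranded RNA and so keeps the cell's own RNA from triggering the sensors. It stood at 48.4, 60.0, 58.7, 68.7 and 83.3 CPM without and 125, 152, 113, 169 and 141 CPM with ibudilast. Every ibudilast library was above every untreated one, the mean ratio was 2.20, and the log2 fold change was 1.14 ± 0.15 (edgeR adjusted p = 0.000972). It was between 1.052 and 1.278 with 1 library left out and called each time.

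The other effectors did not pass. Ifit2, whose product binds viral RNA, had 12.2, 15.6, 17.4, 14.5 and 13.3 CPM in untreated 1 to 5 and 10.7, 13.2, 10.1, 10.7 and 14.0 CPM in ibudilast 1 to 5. The groups overlapped, and the log2 fold change was -0.31 ± 0.14 (SE; edgeR adjusted p = 0.1002). Its relative Ifit3 ranged from 3.59 to 11.8 and from 1.57 to 10.4 CPM, with ibudilast 1 lowest and untreated 4 highest (-0.52, edgeR adjusted p = 0.387). Rsad2, which encodes viperin, ranged from 1.38 to 7.44 CPM in untreated libraries, with untreated 2 above the others, and from 1.83 to 2.84 CPM in treated ones (-0.60, edgeR adjusted p = 0.263). Oas1a, an oligoadenylate synthetase gene, ranged from 1.09 to 2.64 and from 1.11 to 1.64 CPM. Samhd1, a nucleotide hydrolase gene that limits reverse transcription, ranged from 5.87 to 10.2 and from 5.22 to 8.43 CPM.

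Among 3 genes for membrane proteins, Ifi27 and Bst2 fell and Ifitm3 did not pass. Ifi27, which encodes a small mitochondrial membrane protein, stood at 133, 135, 113, 97.9 and 85.4 CPM in untreated 1 to 5 and at 68.1, 64.2, 52.0, 49.99 and 59.7 CPM in ibudilast 1 to 5. The groups were apart. Ifi27 fell by 0.94 ± 0.14 on the log2 scale (SE; edgeR adjusted p = 0.00125). It had the smallest p of the lower members, and it was called each time 1 library was left out (-0.997 to -0.865). Bst2, which encodes tetherin, the protein that holds budding virus at the cell surface, had 20.2, 20.5, 12.5, 7.66 and 7.32 CPM against 5.35, 4.40, 10.6, 3.76 and 8.71 CPM. Untreated 4 and untreated 5 lay within the treated range, and ibudilast 3 and ibudilast 5 were the highest treated libraries. Bst2 had a log2 fold change of -1.04 ± 0.38 (edgeR adjusted p = 0.0482). Among the fits that leave out 1 library it passed in those lacking untreated 4, untreated 5 or ibudilast 3 (-1.27 to -0.85), and without untreated 1, ibudilast 3 and ibudilast 5 it was -1.42 and passed (adjusted p = 0.0276). Ifitm3, whose product blocks viral entry, ranged from 5.53 to 8.29 CPM without ibudilast and from 2.82 to 10.6 CPM with it, with ibudilast 3 and ibudilast 5 on top. Over all 10 libraries the estimate was -0.14 (edgeR adjusted p = 0.766), and it was -0.83 without the 3 libraries just named, where it passed (adjusted p = 0.0488). Meningeal markers were high in the same ibudilast libraries, and their part in these levels was not tested.

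Of the 3 genes for guanylate-binding proteins and a related GTPase-like protein, Ifi44 fell. Ifi44 had 10.9, 12.6, 7.25, 9.14 and 6.08 CPM in untreated 1 to 5 and 5.35, 4.65, 7.02, 3.76 and 5.68 CPM in ibudilast 1 to 5, so that untreated 5 was below ibudilast 3. The log2 fold change was -0.79 ± 0.23 (SE; edgeR adjusted p = 0.0220), and it did not pass without untreated 1, untreated 2, ibudilast 2 or ibudilast 4 (-0.91 to -0.65). Gbp2, a GTPase gene that also answers to interferon gamma, was at 13.5, 7.80, 4.38, 5.65 and 3.87 CPM against 3.52, 2.51, 5.46, 3.52 and 5.02 CPM. Untreated 1 was highest, and the log2 fold change of -0.80 ± 0.36 did not pass (edgeR adjusted p = 0.0942), and without untreated 1 the value was -0.43. Gbp5, its neighbour in the annotation, ranged from 1.93 to 7.48 and from 1.88 to 3.79 CPM with the same library highest (-0.49, edgeR adjusted p = 0.311).

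Ifit1, Oasl and Cxcl10 were below the filter on low counts and were not tested. Ifit1 summed to 18 counts over the untreated and 11 over the ibudilast libraries. Oasl, an oligoadenylate synthetase-like gene, summed to 47 and 28 counts and was lower in every ibudilast library than in any untreated one by CPM (0.880 to 1.93 against 0.469 to 0.758 CPM). Cxcl10, a chemokine gene that draws T cells, summed to 50 and 24 counts, 23 of them in untreated 1. With no filter Oasl passed (log2 fold change -0.98 ± 0.34, edgeR adjusted p = 0.0480), and Ifit1 (-0.88, adjusted p = 0.277) and Cxcl10 (-1.33, adjusted p = 0.160) did not. Transcripts of the ligands themselves were rarely counted. Ifnb1 had 0 counts in all 10 libraries, which allows up to 3 counts or 0.0373 CPM over the 10 together, and Ifna1, Ifna2 and Ifna4 had at most 1 count in a library. The ligand genes were looked up after the other values had been seen.

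The members did not order the libraries alike. Untreated 2 was the highest of the 10 libraries for 14 of the 36 members and the highest untreated library for 16, among them Isg15, Usp18, Rsad2, Dhx58, Mx2, Irf7 and Ddx58. Untreated 1 was highest for Gbp2, Gbp5, Oas1a and Cxcl10, untreated 3 for Mx1, Ifit2 and Eif2ak2, and untreated 4 for Irf9, Ifih1 and Ifit3. Untreated 2 also had the highest microglia marker sum (1756 CPM), followed by untreated 1 (1562 CPM). In untreated 5, the library with the lowest microglia sum of its group (1032 CPM), the median over the tested members of log2 CPM centred on each gene's mean was -0.16, against 0.47 in untreated 2. Among the ibudilast libraries that median ran from -0.54 in ibudilast 4 to 0.06 in ibudilast 3, the library with the lowest microglia sum of all 10 (463 CPM). The ratio of the highest to the lowest library was larger in the untreated group for 21 of the 33 tested members and larger in the ibudilast group for 12. For Isg15 it was 5.30 and 2.28, for Rsad2 5.38 and 1.5545, and for Irf7 2.68 and 1.25. Without untreated 2 the members' median log2 fold change was -0.30, and over the 10 fits with 1 library left out it ran from -0.61 to -0.30.

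**Figure D4:**
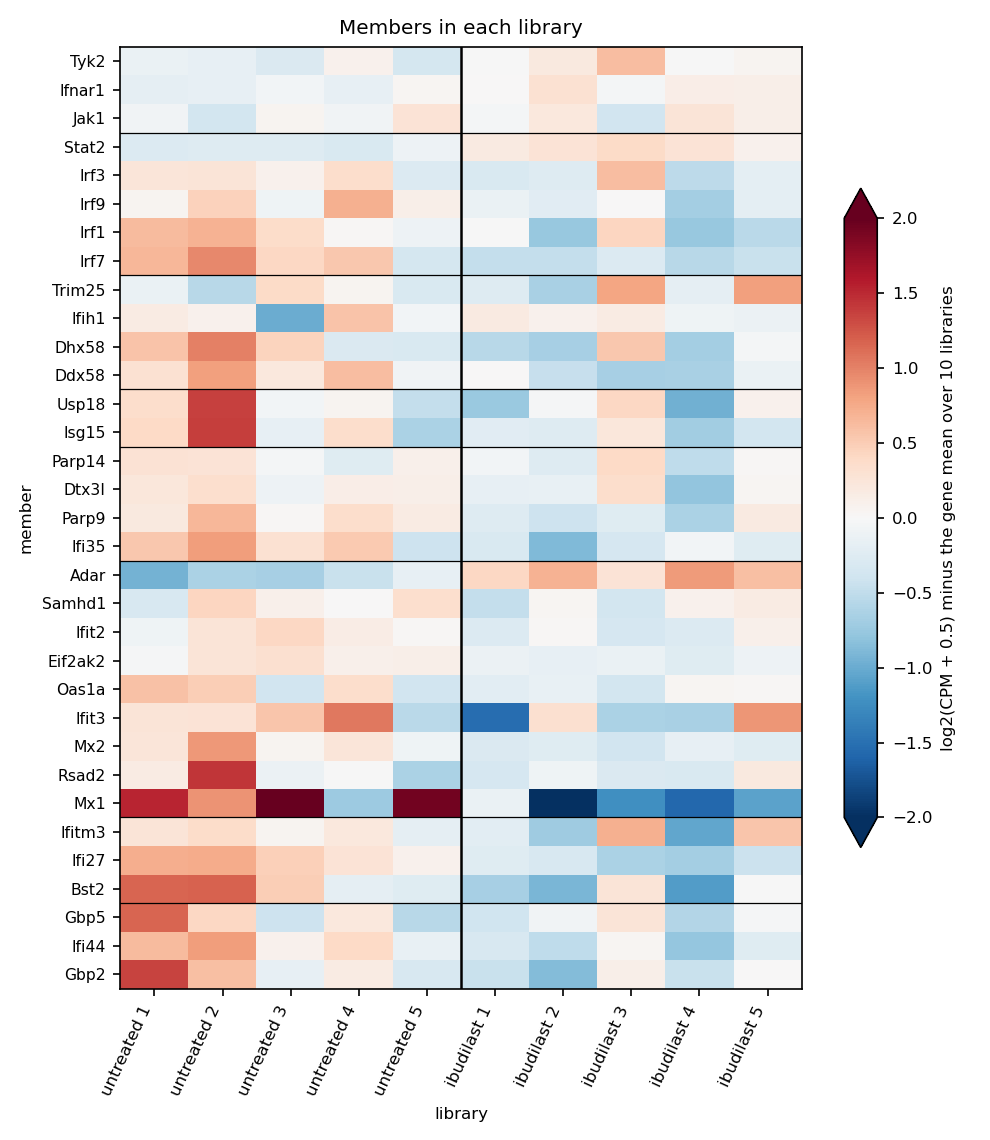
Level of each tested member in each library as log2(CPM + 0.5) minus the gene's mean over the 10 libraries, rows by role, with a line between the 5 untreated and the 5 ibudilast libraries. Untreated 2 is dark for Isg15, Usp18 and Rsad2, Mx1 peaks in untreated 3, and Adar and Stat2 run opposite to most rows.

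Other genes of the pathway were taken from 4 further lists. Of 112 names 88 were in the table and 72 were tested, of which 15 fell (20.8%) and 6 rose (8.33%), where 18.5% and 20.0% of all tested genes did. Their median log2 fold change was -0.21. Among 35 further induced genes 7 fell (20.0%) and 1 rose (2.86%), with a median of -0.40. Epsti1 fell from 6.18 ± 1.90 to 2.58 ± 0.60 CPM (mean ± SD over 5 libraries a group), and Znfx1, which encodes a helicase-like sensor of viral RNA, rose from 27.4 ± 2.24 to 65.8 ± 17.9 CPM. Of 15 sensing and adaptor genes 3 fell (20.0%) and 1 rose (6.67%). The falls included Trex1, a nuclease gene that clears cytosolic DNA (-0.52 ± 0.13 on the log2 scale, SE; edgeR adjusted p = 0.00871), and Tlr7, an endosomal RNA receptor gene of myeloid cells (-0.68 ± 0.18, edgeR adjusted p = 0.0130).

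Of 11 further receptor, kinase and factor genes 3 fell (27.3%) and 1 rose (9.09%), where 18.5% and 20.0% of all tested genes did. Il10rb, which encodes a chain shared by the interleukin 10 and type III interferon receptors, fell from 7.47 ± 0.42 to 4.84 ± 0.89 CPM, and Stat3 rose from 62.6 ± 5.27 to 81.7 ± 7.69 CPM. Negative regulators moved both ways, with 2 of 11 lower (18.2%) and 3 higher (27.3%). Ptpn6, the phosphatase gene of blood cells and microglia, fell from 15.9 ± 5.05 to 7.27 ± 2.001 CPM, and Rnf5, a ubiquitin ligase gene that acts on the adaptors, from 113 ± 11.6 to 66.9 ± 9.53 CPM. Cyld, a deubiquitinase gene, rose from 58.8 ± 9.49 to 88.9 ± 15.3 CPM, and Irak3 from 5.18 ± 0.41 to 8.15 ± 0.89 CPM. These 10 genes each passed in all 10 fits with 1 library left out. The count of falling genes on these lists was 9 without ibudilast 2, where 14.1% of all tested genes fell. That of rising genes was 3 without untreated 1, ibudilast 3 and ibudilast 5, where 15.0% of all tested genes rose.

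Fits that carried a marker score as a covariate called few or none of the members. Each score is a mean z-score over markers and differs between the groups, so part of the treatment difference is shared with it. The microglia score was 0.23 to 1.31 in the untreated and -1.62 to -0.06 in the ibudilast libraries. The groups did not overlap in it, so that fit cannot tell the score from the treatment. With the microglia score edgeR called 0 of the 33 members (0 lower and 1 higher at an unadjusted p under 0.05) and 0 of all tested genes (1370 at an unadjusted p under 0.05), where 0% were called lower. The log2 fold changes under that score were 0.95 ± 0.30 (SE) for Adar, 0.28 ± 0.14 for Stat2, -2.18 ± 1.07 for Mx1, -0.37 ± 0.22 for Ifi27, -0.60 ± 0.49 for Irf7, -0.05 ± 0.32 for Ddx58 and -0.05 ± 0.29 for Mx2, and the members' median was -0.34. With the hippocampal neuron score 0 of the 33 passed (6 lower and 2 higher at an unadjusted p under 0.05), with 0.146% of all genes called lower and 0.659% higher, and a members' median of -0.46. With the neocortical neuron score 2 members, Ifi27 and Mx2, were lower and 3, Adar, Stat2 and Tyk2, were higher, against 7.21% and 11.2% of all genes. DESeq2 and limma were not run with these covariates.

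**Figure D5:**
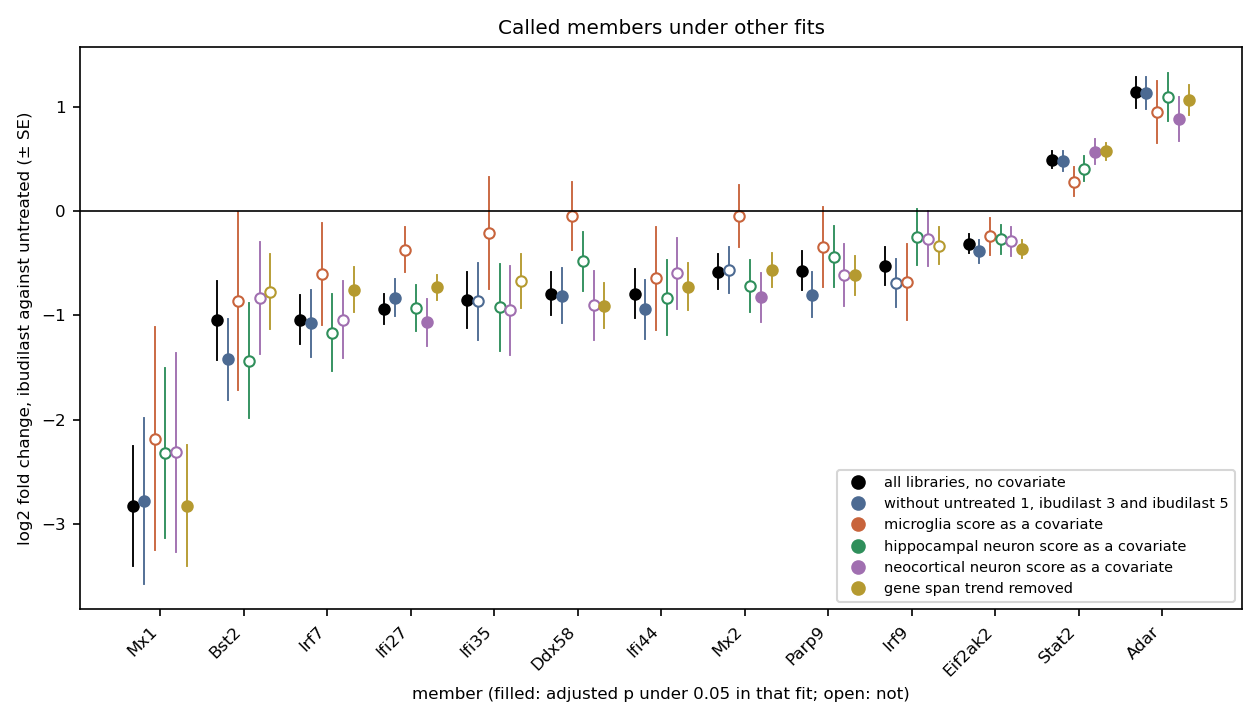
Log2 fold change with its standard error for the 13 called members with all libraries and no covariate, without untreated 1, ibudilast 3 and ibudilast 5, with each of 3 marker scores as a covariate, and with the trend on gene span removed. Filled points passed at an adjusted p under 0.05 in that fit. With the microglia score, which does not overlap between the groups, Mx2 and Ddx58 lie near 0 (both -0.05). Adar stays between 0.89 and 1.14 over the fits shown.

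The relation of level to gene span differed between the groups and also between libraries of a group. The slope of centred log2 CPM on log2 span was -0.0886, -0.0749, -0.0567, -0.0344 and -0.0017 in untreated 1 to 5. In ibudilast 1 to 5 it was 0.0230, 0.0595, 0.0355, 0.0745 and 0.0638. The slope thus rose with replicate number among the untreated libraries, and what set it was not tested. The tested members had a median span of 16086 bases against 24425 over all tested genes. With that trend removed 8 members fell and 2 rose, with a median of -0.37, against 15.5% of all genes lower and 18.5% higher, and Bst2, Ifi35 and Irf9 did not pass. Adar then had a log2 fold change of 1.07 ± 0.15 (SE), Stat2 0.57 ± 0.08, Mx1 -2.82 ± 0.58, Irf7 -0.75 ± 0.22 and Ifi27 -0.73 ± 0.12.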

How the data were processed

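Strand-specific mRNA libraries were made from left hippocampi of 10 rats, per the labels' protocols. The sources used here do not say if strand entered the counting. The deposited expected counts are the authors' estimates per gene. The submitters' processing notes name bcl2fastq 2.17, Bowtie2 2.1.0, RSEM 1.2.15, edgeR and the rn6 build. The deposited signal values are the authors' TMM-scaled CPM, and CPM recomputed from rounded counts matched 99.9% of them to within 0.1%. Of the symbols, 25 had become dates, none of them a member's.

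Rounded counts were tested with edgeR 4.0.16 under R 4.3.3, using the quasi-likelihood test with TMM factors after filterByExpr. P-values were adjusted by Benjamini and Hochberg's method across 11682 genes and called under 0.05, and the procedure was tested on simulated data. Each SE is the log2 fold change divided by the square root of the F statistic. Groups came from the treatment labels. Alternatives used DESeq2 1.42.0, limma 3.58.1, other scaling and filters, blocks, covariates (mean z-scores of markers), a loess offset on gene span (GRCr8, 98.2% of tested genes matched) and each library left out.

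Members and lists were chosen with earlier results of these data known. Values by library are given for called members, the 6 uncalled members of smallest p and the receptor, kinase and factor genes, and untested members are given by counts. Of the other pathway genes, the 4 of smallest p called in each direction and up to 2 from each list are named. The labels name no batch, and each title has its own animal tag. P-values therefore set the difference between groups against the spread between libraries of separate animals within a group. Differences in tissue markers between the groups, given above, enter the estimated changes. The p-values of the fit without covariates do not allow for them.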

Additional observations from a re-analysis of the deposited data

Results flagged for a closer look

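Among the 42 groups of 5 libraries behind the 21 members given by library, 4 had 1 library far from the others by Dixon's ratio (above 0.71), and chance flags about 1 in 20 such groups. Mx2 stood at 54.9 CPM in untreated 2, where the next highest untreated library had 35.5 CPM. Stat2 stood at 52.5 CPM in untreated 5, next to 47.1 CPM. In ibudilast 3, Tyk2 was at 38.3 CPM, next to 28.4 CPM, and Irf3 at 52.1 CPM, next to 29.5 CPM.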

How the results depend on the processing

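Bst2 did not pass without a filter or with limma-voom, robust edgeR or limma-trend, and with the animal tag block Bst2 and Irf9 did not and Irf1 did. With library totals only, 7 members fell, and Bst2, Eif2ak2, Irf9 and Parp9 did not pass, and Ifnar1 did. The replicate numbers share only a label: deviations of same-numbered libraries correlated between -0.13 and 0.02, and 0 of 10 libraries correlated best with their own number. With the replicate block 5 members fell and 2 rose, against 14.2% and 16.0% of all genes. With the microglia score as a covariate 0 genes passed, so 0 members and 0 other interferon genes were lower or higher. With the hippocampal score 94 genes passed, 0 of them members or other interferon genes. With the neocortical score 2151 passed (7.21% of all genes lower and 11.2% higher). There 2 members were lower, and 4 other interferon genes were lower and 3 higher. Without untreated 1, ibudilast 3 and ibudilast 5, 3 other interferon genes were higher, where 15.0% of all genes were. With 1 library left out, 6 to 13 members were lower, 2 or 3 higher, 9 to 21 other interferon genes lower, 5 or 6 higher, and 3458 to 4751 of all genes called. Among the members given by library, these values changed sign, none called in either fit: Tyk2 -0.10 with the microglia score, Jak1 -0.22 and Irf3 0.25 with the neocortical score, Jak1 -0.15 and Irf3 0.014 with the span trend removed, and Jak1 -0.0012 without untreated 2, in a range of -0.0012 to 0.188 over the fits with 1 library left out. Other members changed sign, uncalled, with the microglia score (Ifih1 -0.16, Trim25 -0.46, Oas1a 0.24, Rsad2 0.81), with the neocortical score (Dtx3l 0.05, Parp14 0.14, Ifitm3 0.36), with the span trend removed (Ifih1 -0.09, Ifitm3 0.29) and without the 3 libraries (Trim25 -0.38). The cause of these differences was not tested. Depth limits the members of low counts most, since Trim25, Oas1a, Isg15, Usp18 and Mx1 had fewer than 10 counts in at least 1 library.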
